A study of Mus musculus with 36 samples.

Results

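The 32 genes described here encode the enzymes that carry pyruvate into the tricarboxylic acid (TCA) cycle, the enzymes of the cycle, and the enzymes that refill or drain it. They were taken by name from a table of 56980 mouse genes, with no threshold on their values: the 5 structural genes of the pyruvate dehydrogenase complex, its 4 kinases and 2 phosphatases, 15 genes of the cycle and its isoforms outside mitochondria, and 6 genes of anaplerosis. All 32 were found in the table and all passed the filter on low counts. Their median level was 109 CPM (counts-per-million, on TMM library sizes), against 3.53 CPM for the 25601 genes tested. A change of a given size was therefore easier to call in these genes than in most others.

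Pyruvate dehydrogenase converts pyruvate to acetyl-CoA inside mitochondria. Its kinases phosphorylate the E1 alpha subunit and switch the complex off, and its phosphatases remove the phosphate and switch it on again. The cycle oxidises acetyl-CoA and passes electrons as NADH, most of which complex I of the respiratory chain takes up. In brain, the same cycle is the source of carbon for glutamate and GABA, and astrocytes and neurons divide its refilling between them.

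The samples were polyA-selected RNA in 36 samples of brain tissue from mice 37 to 45 days old that carried a knockout of Ndufs4 (KO) or were wild type (WT). Ndufs4 is a subunit of complex I, and CP2, given by gavage for 3 days, is a complex I inhibitor according to the series title; control mice got vehicle. Hippocampus and cortex were collected according to the design text, while each sample is labelled only brain. Each title also carries the letter F or M, whose meaning the labels do not give, so genotype, treatment and letter make 8 groups: KO CP2 F, KO vehicle F, WT CP2 F, WT vehicle F, KO CP2 M and WT CP2 M with 5 samples each, and KO vehicle M and WT vehicle M with 3 each. The labels name no allele, strain or litter, and whether each sample is one mouse is not stated, so p-values measure the spread between these samples.

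Counts in genes summed to 46124548 in the shallowest sample and 88559920 in the deepest. Ndufs4 itself lay between 27.4 and 39.1 CPM in the 18 KO samples and between 38.9 and 62.8 CPM in the 18 WT samples. The ranges of KO and WT did not overlap within any treatment and letter, and reads of the gene remained in KO. Some libraries stood apart. The 3 cerebellar markers summed to 268 CPM in L201 and 51.5 CPM in L233, both KO CP2 F, to 15.0 CPM in L278 of WT vehicle F, and to at most 1.68 CPM elsewhere. L291 of KO CP2 M held 47.3 CPM of Xist beside 80.8 CPM of the Y-linked Ddx3y, whereas the other M samples held at most 0.833 CPM of Xist. Those other M samples held 61.8 to 84.5 CPM of Ddx3y. The 20 F samples held 439 to 798 CPM of Xist and at most 0.214 CPM of Ddx3y. By these genes the letters matched female (F) and male (M), except that L291 held both. L266 of KO CP2 M differed from each of the other samples of its group by a mean chi-square of 83.2 to 117 per gene, against 19.5 to 40.7 among those others. Where leaving out L266 with L291, L201 with L233, or L278 ended a call printed below with its value, that loss is given.

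The share of counts outside annotated genes also varied, from 5.09% to 13.2% with a median of 7.61%. In M it was 7.33% ± 1.40 (SD, n = 5) in KO CP2, 11.5% ± 1.64 (SD, n = 5) in WT CP2 and 12.1% ± 0.885 (SD, n = 3) in KO vehicle. In F it was 9.24% ± 2.56 (SD, n = 5) in KO vehicle and 5.99% ± 0.740 (SD, n = 5) in WT vehicle. By exact two-sided permutation tests of these 3 differences, p was 0.0159 for KO against WT with CP2 in M, 0.0357 for CP2 against vehicle in KO M, which is the smallest p that 5 against 3 samples allow, and 0.0397 for KO against WT with vehicle in F. Adjusted over the 8 comparisons of matched groups, each came to 0.106.

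Levels between genes were compared per kilobase of exon. The median over all samples was highest for Mdh1, the cytosolic malate dehydrogenase, at 238 CPM per kb, followed by the cytosolic aspartate aminotransferase Got1 at 116, glutamate dehydrogenase Glud1 at 79.9 and the mitochondrial malate dehydrogenase Mdh2 at 70.7 CPM per kb. Lowest were the phosphatase Pdp2 at 2.03, the malic enzyme Me3 at 2.48, the kinase Pdk4 at 3.28, the malic enzyme Me2 at 3.48 and the GTP-forming succinyl-CoA ligase subunit Suclg2 at 5.18 CPM per kb. Among the kinases Pdk2 led with 34.9 CPM per kb, and Pdp1, with 29.6 CPM per kb, was the main phosphatase transcript. The spread of log2 CPM within groups ran from an SD of 0.066 for Pdha1 to 0.22 for Pdp1.

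Each gene was tested with edgeR's quasi-likelihood test in 16 contrasts, and a gene was called at a Benjamini-Hochberg adjusted p under 0.05 over all 25601 genes. Most fold changes of the 32 genes were small. Under vehicle, the average of both letters called 4 of 32 genes (12.5%) between KO and WT, against 6.67% of all genes tested: 3 were lower in KO, where 3.8% of all genes were, and 1 was higher, where 2.87% were. With CP2, 5 of 32 (15.6%) were called against 11.6% of all genes, with 2 lower (6.07% of all genes) and 3 higher (5.54%). Between CP2 and vehicle within KO, 1 of 32 was called against 3.91% of all genes.

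Median log2 fold changes of the 32 genes were -0.051 for KO against WT with vehicle, 0.035 with CP2, and 0.052 for CP2 against vehicle in KO, beside 0.022, 0.012 and 9.89e-05 over all genes tested. With vehicle 30 of the 32, with CP2 28 and for CP2 in KO 31 had an absolute log2 fold change under 0.2. The median absolute values were 0.074, 0.066 and 0.062, against 0.20, 0.19 and 0.17 over all genes tested. The 32 genes had a median level of 109 CPM against 3.53 CPM for all genes tested. The sets were not matched for level, so these absolute values are not compared like with like.

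**Figure D1:**
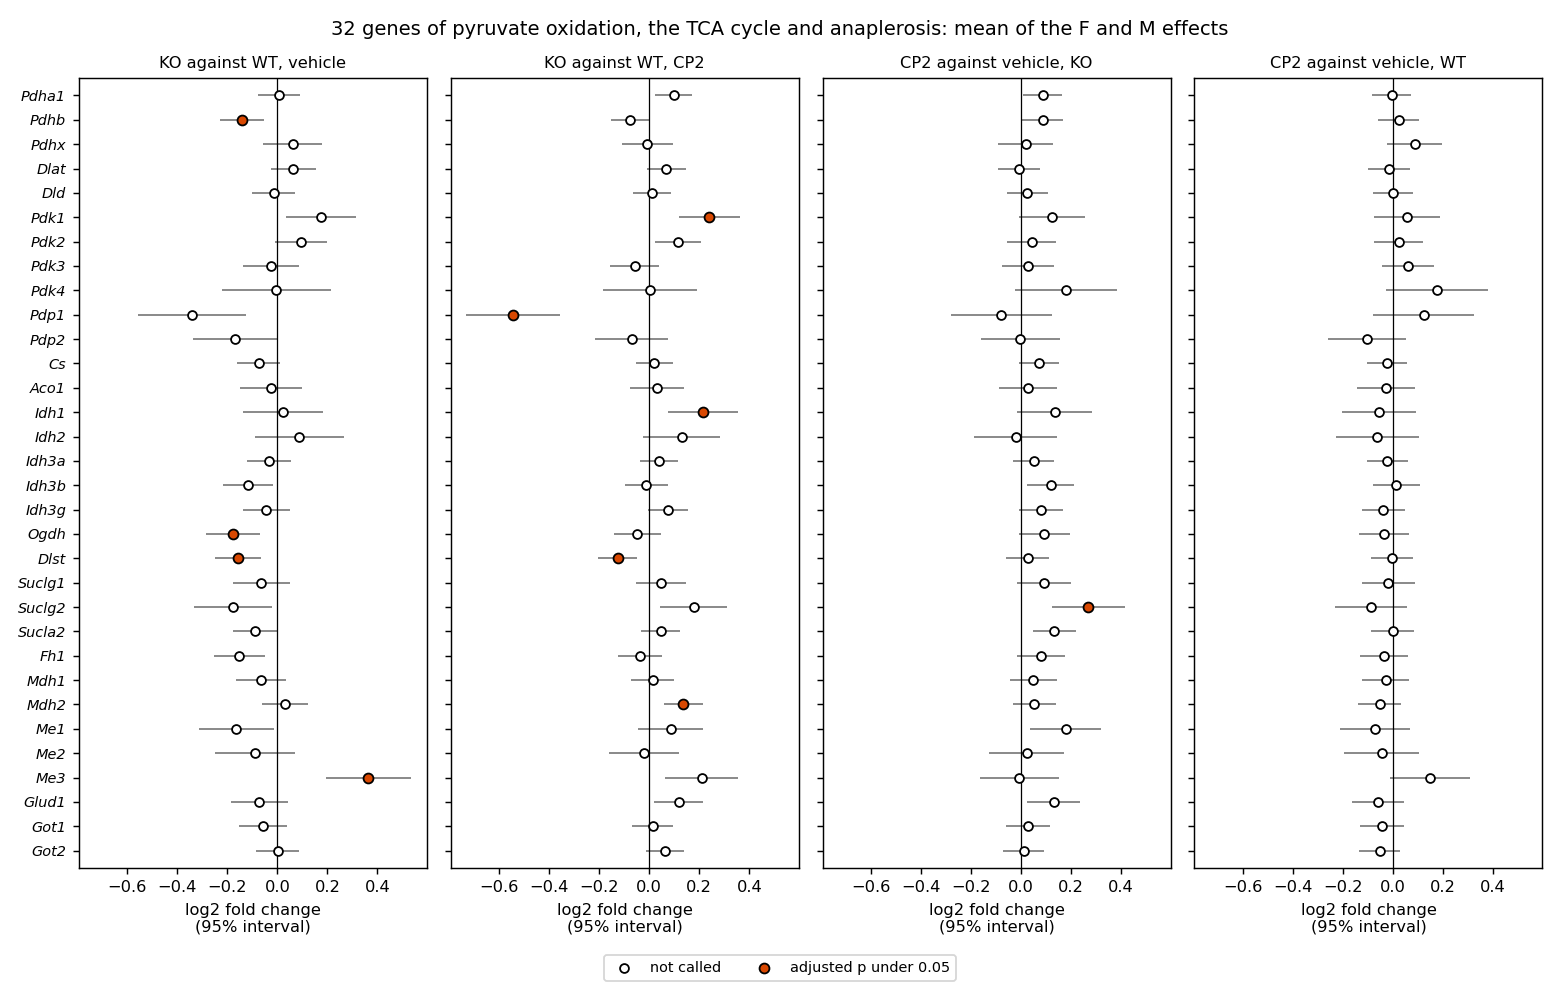
Log2 fold changes of the 32 genes (x axis, with 95% intervals) in 4 comparisons, each the mean of the effects in F and M; filled points passed an adjusted p under 0.05. Pdp1 lay at -0.54 in KO against WT with CP2, the point farthest from 0, and no gene passed for CP2 against vehicle in WT.

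Pdp1, the calcium-stimulated phosphatase that reactivates pyruvate dehydrogenase, was lower in KO with CP2. In F with CP2, Pdp1 stood at 80.3, 94.4, 107, 113 and 140.2 CPM in KO and at 133, 134, 150.2, 176 and 176 CPM in WT. In M with CP2 it stood at 84.7, 98.3, 114, 122 and 123 CPM in KO and at 144, 150.3, 161, 167 and 178 CPM in WT. Every KO sample of M lay below every WT sample, while in F 1 KO sample, L227, lay within the WT range. Averaged over F and M, Pdp1 fell by 31.3%, a log2 fold change of -0.54 (SE 0.10, 95% interval -0.73 to -0.35, edgeR adjusted p = 0.000264).

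Taken separately, Pdp1 was called in F, at -0.52 (SE 0.14, adjusted p = 0.0359), and in M, at -0.56 (SE 0.14, adjusted p = 0.00645). The F call was kept in 4 of 9 alternatives and the M call in all 9. The average kept its call in all 9 alternatives, with adjusted p from 3.93e-07 to 0.0013, and with each of 20 libraries left out in turn. Without L201 and L233 the average was -0.50 (adjusted p = 0.0013), and the F value was -0.43 (adjusted p = 0.175), no longer called. The F call was also lost with any one of L201, L216, L233 or L234 of KO or L228, L257 or L272 of WT left out, at adjusted p of up to 0.124. Without L266 and L291 the M value was -0.52 (adjusted p = 0.0422). In KO against WT with CP2, 3 of 3 cerebellar markers were higher in KO in F and on average, and 3 of 7 microglial markers on average. The cerebellar sum was 268 CPM in L201, 51.5 CPM in L233 and at most 1.09 CPM in the other KO CP2 F samples. On average 1 of 8 neuronal, 1 of 7 astrocyte, 1 of 6 oligodendrocyte and 1 of 6 hippocampal CA markers were also higher. The part of these markers in the Pdp1 results was not tested.

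With vehicle the Pdp1 values pointed the same way and did not pass the test. In F with vehicle, KO samples stood at 91.5, 102, 118, 142 and 146 CPM and WT samples at 122, 124, 155, 159 and 181 CPM, with overlap. In M with vehicle, KO samples stood at 102, 109.7 and 112 CPM and WT samples at 134, 136 and 150.1 CPM, without overlap. The average log2 fold change was -0.34 (SE 0.11, adjusted p = 0.058). The genotype effect with CP2 less that with vehicle was -0.20 (95% interval -0.49 to 0.083, adjusted p = 0.551), so the effects under CP2 and vehicle were not shown to differ. The second phosphatase, Pdp2, was called in no contrast and had a log2 fold change of -0.071 (SE 0.074) in KO against WT with CP2.

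Pdk1, a pyruvate dehydrogenase kinase known as a target of hypoxia-inducible factor, was higher in KO with CP2. In M with CP2 it stood at 65.9, 69.6, 73.2, 75.6 and 86.3 CPM in KO and at 51.4, 53.6, 56.6, 60.1 and 67.1 CPM in WT. In F with CP2 it stood at 54.8, 58.8, 62.7, 73.96 and 74.9 CPM in KO and at 52.05, 58.6, 61.9, 62.7 and 64.3 CPM in WT. The groups overlapped in both letters: in M only L299 of KO lay below the highest WT sample, L267, whereas in F only L227 and L234 lay above all WT samples. Averaged over F and M, Pdk1 rose by 18.05% (log2 fold change 0.24, SE 0.062, adjusted p = 0.00826), and that call was kept in all 9 alternatives and with each of 20 libraries left out.

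In M alone the Pdk1 difference was 0.36 (SE 0.088, adjusted p = 0.00573), and it was not called with the share of counts outside genes as a covariate (adjusted p = 0.334). Without L266 and L291 it was 0.36 (adjusted p = 0.0334). In F alone it was 0.12 (SE 0.088, adjusted p = 0.556). The F effect less the M effect was -0.24 (SE 0.12, adjusted p = 0.374). With vehicle, KO M samples stood at 69.2, 72.6 and 73.6 CPM, all above the WT M samples at 50.8, 56.3 and 59.7 CPM. KO F samples with vehicle stood at 49.8, 54.3, 55.7, 58.8 and 64.6 CPM and WT F samples at 48.7, 56.3, 58.1, 59.5 and 64.7 CPM, ranges that nearly coincide. The averaged vehicle value was 0.17 (SE 0.072, adjusted p = 0.137).

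The other kinases were called in no contrast. Pdk2, the most abundant per kilobase, had a log2 fold change of 0.11 (SE 0.047, adjusted p = 0.111) in KO against WT with CP2. Pdk3 stood at -0.059 (SE 0.050) there. Pdk4, the kinase known to respond to fasting and fatty acids, averaged 12.9 ± 2.04 CPM (SD) over the 5 samples of KO CP2 M, compared with 9.45 ± 1.999 CPM (SD) over the 3 of KO vehicle M, a log2 difference of 0.45 (SE 0.16, adjusted p = 0.0949).

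**Figure D2:**
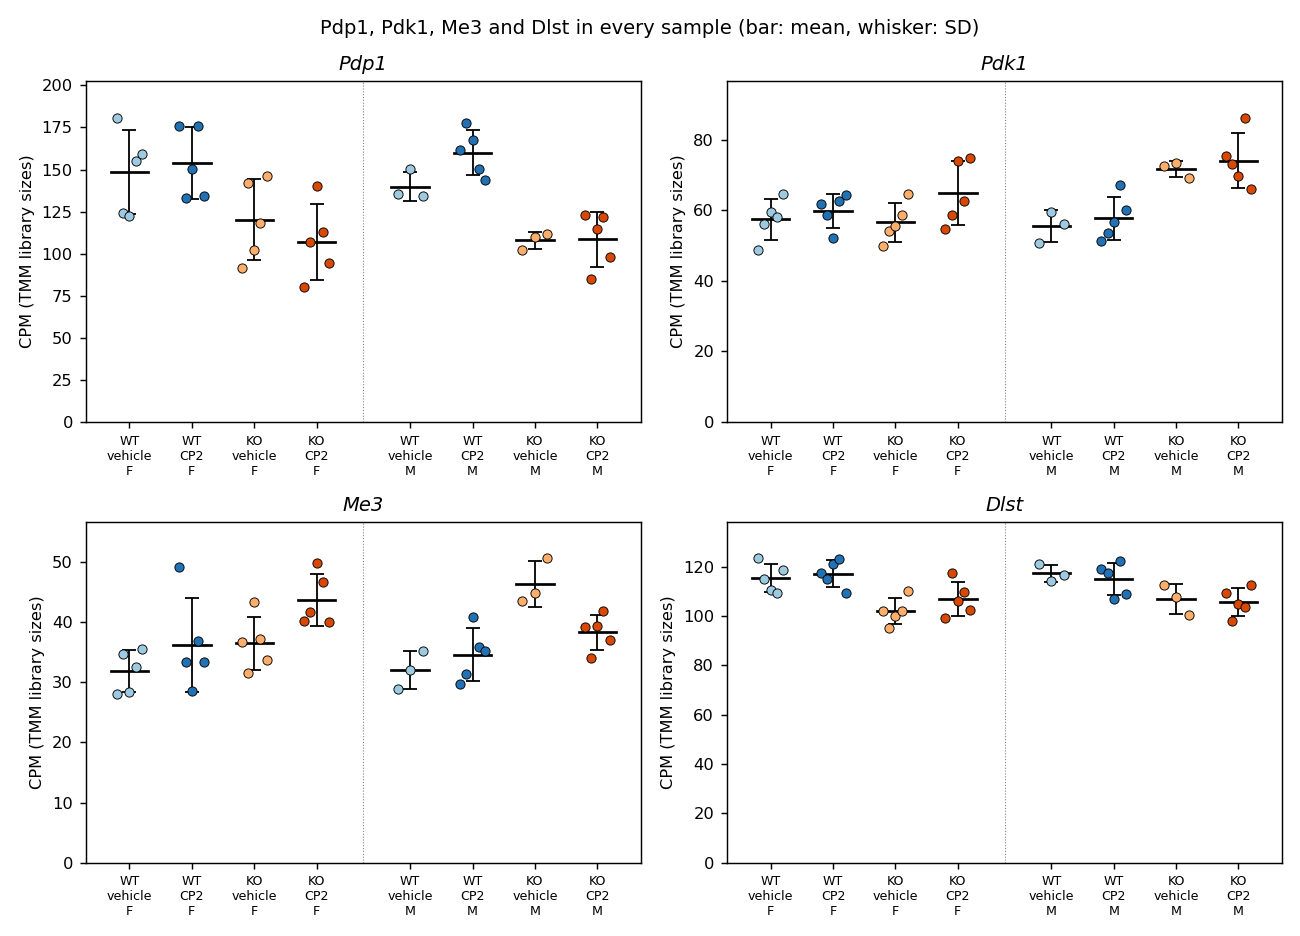
CPM (y axis, from 0) of Pdp1, Pdk1, Me3 and Dlst in each of the 36 samples, by group; bars are group means and whiskers the SD. In M with CP2 every KO point of Pdp1 lies below every WT point, and the Pdk1 points of KO M lie mostly above those of WT M.

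The summed kinase transcripts per kilobase were set against the summed phosphatase transcripts, as a description of these samples with no test. The median ratio was 2.27 in KO CP2 F and 2.11 in KO vehicle F, against 1.70 in WT CP2 F and 1.60 in WT vehicle F. It was 2.28 in KO CP2 M and 2.22 in KO vehicle M, against 1.49 in WT CP2 M and 1.60 in WT vehicle M. In M the KO ratios, from 2.06 to 2.95 with CP2 and from 2.21 to 2.37 with vehicle, did not overlap the WT ratios, which reached at most 1.64. In F the ranges overlapped, with KO samples down to 1.61 and WT samples up to 2.08. With CP2 in F, the median phosphatase sum was 25.9 CPM per kb in KO and 35.4 in WT, and the median kinase sum 59.9 and 59.6 CPM per kb. With CP2 in M the phosphatase sums were 27.4 and 37.8 CPM per kb and the kinase sums 61.5 and 55.3 CPM per kb. Phosphorylation of the complex itself was not measured.

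**Figure D3:**
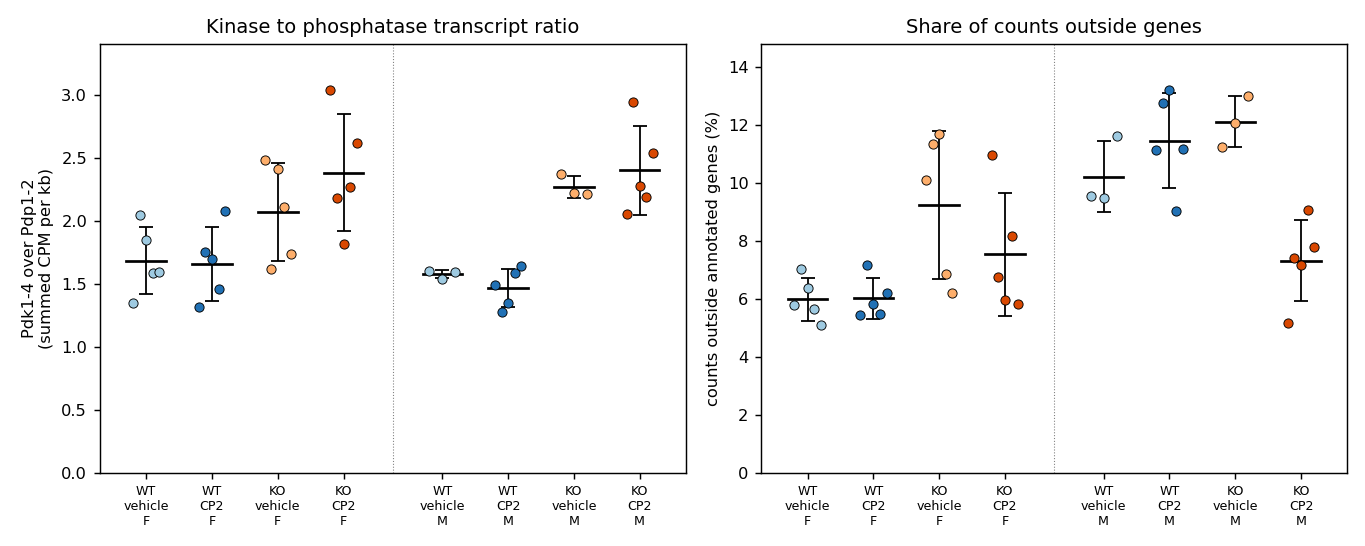
Left, the ratio of summed Pdk1 to Pdk4 over summed Pdp1 and Pdp2 (CPM per kb) in each sample; right, the percentage of counts outside annotated genes; bars are means, whiskers the SD. In M the ratios of KO lie at or above 2.06 and those of WT at or below 1.64; on the right KO CP2 M, at 5.18% to 9.06%, lies below KO vehicle M, at 11.3% to 13.0%.

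The structural genes of pyruvate dehydrogenase changed by less. Pdhb, the E1 beta subunit, was lower in KO with vehicle, and so were Ogdh and Dlst, the E1 and E2 subunits of the 2-oxoglutarate dehydrogenase complex that works by the same chemistry inside the cycle. To show what lies upstream of these 3 genes that were lower together, the 250 bases before the first start that RefSeq lists for each are printed from GRCm38.p6, at chr14:8172993-8173242 on the minus strand for Pdhb, chr11:6291347-6291596 on the plus strand for Ogdh, where 6 starts are listed, and chr12:85110583-85110832 on the plus strand for Dlst. Capitals mark, on either strand, ACGTG, the core of the hypoxia response element, and CCAAT, the CCAAT box; a search for AAGGTCA, an estrogen-related receptor element, and TGCGCA, a core of the NRF1 site, found none in them.
Pdhb: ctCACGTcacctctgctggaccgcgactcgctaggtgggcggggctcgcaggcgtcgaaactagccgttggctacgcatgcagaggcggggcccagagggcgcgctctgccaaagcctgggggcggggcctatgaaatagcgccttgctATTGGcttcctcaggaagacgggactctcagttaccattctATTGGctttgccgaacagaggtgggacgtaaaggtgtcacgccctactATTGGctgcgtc
Ogdh: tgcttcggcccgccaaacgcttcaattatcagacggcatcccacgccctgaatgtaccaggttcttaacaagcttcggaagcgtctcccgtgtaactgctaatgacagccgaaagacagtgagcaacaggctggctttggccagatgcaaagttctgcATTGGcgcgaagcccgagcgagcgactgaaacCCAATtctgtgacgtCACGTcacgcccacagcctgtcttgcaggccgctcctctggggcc
Dlst: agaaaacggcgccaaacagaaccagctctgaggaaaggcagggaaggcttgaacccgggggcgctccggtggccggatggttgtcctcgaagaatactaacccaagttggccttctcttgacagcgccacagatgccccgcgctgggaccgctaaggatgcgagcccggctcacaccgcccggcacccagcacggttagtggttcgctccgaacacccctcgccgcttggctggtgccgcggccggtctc
Pdhb held 1 ACGTG and 3 CCAAT boxes, Ogdh 1 and 2, and Dlst neither. Of the 32851 windows of this length, 16.6% held ACGTG and 33.8% CCAAT, compared with 7 and 15 of the 29 genes described here that had a window; AAGGTCA stood in 4.08% of windows and in Got1, and TGCGCA in 6.43% and in Got2 and Glud1. The windows held every listed start of a gene, while each of the 29 genes was counted once, at its first listed start. The shares are therefore not like for like. The CCAAT box was added after the sequences had been seen. No window was used for Pdp1, Idh3a and Me2.

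In F with vehicle, Pdhb averaged 100.5 ± 6.08 CPM for KO compared with 114 ± 4.83 CPM for WT (SD, n = 5 each), with 91.8 to 106 CPM against 109 to 121 CPM and no overlap. In M it averaged 105 ± 2.59 CPM compared with 113 ± 7.76 CPM (SD, n = 3 each), and the samples overlapped. The F and M average fell by 9.39% (log2 fold change -0.14, SE 0.044, adjusted p = 0.0443). In F alone Pdhb was the 1 gene of 32 called, at -0.18 (adjusted p = 0.0462), where 4.96% of all genes were called. That F call was kept in 1 of 10 fits with 1 library left out (adjusted p of up to 0.148) and in 4 of 8 alternatives, and it was lost without L278 (adjusted p = 0.0513). In the same F contrast 2 of 6 hippocampal CA markers were lower and 1 of 6 endothelial markers higher in KO; their part was not tested. With CP2 its value was -0.078 (SE 0.038, adjusted p = 0.199).

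Under vehicle, Ogdh averaged 237 ± 29.1 CPM for KO compared with 271.998 ± 22.7 CPM for WT in F (SD, n = 5 each). In M the averages were 249.6 ± 5.42 CPM and 278.4 ± 12.4 CPM (SD, n = 3 each). The KO F samples ranged over 189.6 to 265.8 CPM, with L281 the lowest, and overlapped WT F at 245 to 305 CPM. The M samples did not overlap. Ogdh fell by 11.6% (log2 fold change -0.18, SE 0.055, adjusted p = 0.0441).

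Dlst was lower in KO under both treatments, which were compared in different samples. With vehicle it had 102 ± 5.33 CPM against 115 ± 5.81 CPM in F (SD, n = 5 each) and 107 ± 6.10 against 117 ± 3.48 CPM in M (SD, n = 3 each). It fell by 10.3% (log2 fold change -0.16, SE 0.046, adjusted p = 0.0336). With CP2 it had 107 ± 7.04 CPM against 117 ± 5.41 CPM in F and 106 ± 5.70 against 115 ± 6.56 CPM in M (SD, n = 5 each), and it fell by 8.41% (log2 fold change -0.13, SE 0.040, adjusted p = 0.0329). The groups overlapped with CP2 in both letters. With each of 20 libraries left out in turn the CP2 call was kept in 12 fits, with an adjusted p of up to 0.0654. Without L201 and L233 it was lost (-0.12, adjusted p = 0.0707), and likewise without L266 and L291 (-0.11, adjusted p = 0.098).

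These small vehicle differences rested on narrow margins. With RLE library factors in place of TMM the adjusted p was 0.0516 for Dlst, and Pdhb and Ogdh were not called either; with the share of counts outside genes as a covariate the adjusted p was 0.577 for Pdhb, 0.511 for Ogdh and 0.406 for Dlst. With 1 of 16 libraries left out at a time, Pdhb was called in 6 of 16 fits, Ogdh in 5 and Dlst in 8, with adjusted p of up to 0.162, 0.117 and 0.137. Without L278 the 3 averaged calls were kept. In the same contrast 2 of 3 red blood cell markers and 1 of 7 microglial markers were lower in KO, and 1 of 6 hippocampal CA markers was higher. The red blood cell sum ranged over 68.7 to 119.5 CPM in KO vehicle F and 79.003 to 352 in WT vehicle F. It ranged over 36.5 to 80.8 in KO vehicle M and 106 to 592 CPM in WT vehicle M, with none of the 3 at 0. The part of these markers in the differences was not tested. In such bulk tissue, fewer cells of a type and less RNA per cell cannot be told apart.

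Me3, the mitochondrial NADP-dependent malic enzyme, which turns malate into pyruvate, was higher in KO with vehicle. In M with vehicle it stood at 43.6, 44.9 and 50.6 CPM in KO and at 28.9, 31.96 and 35.2 CPM in WT. In F with vehicle it stood at 31.6, 33.6, 36.6, 37.1 and 43.3 CPM in KO and at 28.1, 28.3, 32.6, 34.7 and 35.5 CPM in WT. The M groups did not overlap and the F groups did. Averaged, Me3 rose by 28.7% (log2 fold change 0.36, SE 0.087, adjusted p = 0.00782), and the call was kept with each of 16 libraries left out. It was lost with the share of counts outside genes as a covariate, where the size was 0.35 and the adjusted p 0.0813.

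With CP2, Me3 samples of F stood at 40.05, 40.1, 41.7, 46.7 and 49.9 CPM in KO and at 28.5, 33.3, 33.4, 36.8 and 49.2 CPM in WT. In M they stood at 33.99, 37.1, 39.3, 39.4 and 41.8 CPM in KO and at 29.6, 31.3, 35.2, 35.9 and 40.8 CPM in WT. In F a single WT sample, L228, lay within the KO range, in M the groups overlapped, and the average of 0.21 (SE 0.075, adjusted p = 0.0625) was not called. The other malic enzymes were called in no contrast: Me1, the cytosolic form, had -0.16 (SE 0.077) and Me2, the mitochondrial NAD-dependent form, -0.089 (SE 0.082) for KO against WT with vehicle.

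The contrast with the most calls was KO against WT with CP2 in M, where 7 of 32 genes (21.9%) were called against 9.99% of all genes: 6 were higher in KO, where 4.75% of all genes were, and 1, Pdp1, was lower, where 5.24% were. The 6 higher genes were Pdk1, Suclg2, Glud1, Idh1, Pdha1 and Mdh2. In F with CP2 only Pdp1 was called, against 2% of all genes. None of the 32 was called when the F effect was set against the M effect, where 0.82% of all genes were, so the effects in F and M were not shown to differ.

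Suclg2, the beta subunit of the GTP-forming succinyl-CoA ligase, was higher in KO CP2 M than in both groups it was compared with. It stood at 23.6, 23.9, 25.1, 30.1 and 30.2 CPM in KO CP2 M and at 17.3, 18.5, 18.7, 20.4 and 23.2 CPM in WT CP2 M. KO vehicle M samples stood at 17.6, 17.6 and 19.2 CPM and WT vehicle M samples at 18.98, 21.5 and 22.1 CPM. The KO CP2 M samples did not overlap any other M group, and L266 and L291 were the highest of them. Against WT with CP2 Suclg2 rose by 35.4% (log2 fold change 0.44, SE 0.10, adjusted p = 0.00248), and against KO with vehicle by 46.7% (log2 fold change 0.55, SE 0.11, adjusted p = 0.00281); both contrasts share the KO CP2 M samples.

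Without L266 and L291 the 2 Suclg2 values in M were 0.30 (adjusted p = 0.0945) and 0.42 (adjusted p = 0.0656), and neither was called. In F, Suclg2 stood at 19.6, 22.01, 22.2, 26.1 and 28.8 CPM in KO CP2 and at 23.4, 24.4, 24.8, 25.7 and 27.3 CPM in WT CP2. KO vehicle F samples stood at 19.3, 24.04, 24.7, 25.003 and 27.1 CPM and WT vehicle F samples at 24.9, 26.2, 26.7, 26.9 and 28.9 CPM. All 4 F groups overlapped, with log2 fold changes of -0.081 (SE 0.10) for KO against WT with CP2 and -0.018 (SE 0.10) for CP2 against vehicle in KO. The F effect less the M effect was -0.57 (SE 0.15, adjusted p = 0.0537) for CP2 in KO and -0.52 (SE 0.14, adjusted p = 0.0521) for KO against WT with CP2, both just short of a call.

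Averaged over F and M, Suclg2 was the 1 gene of 32 called for CP2 against vehicle in KO, at 0.27 (SE 0.074, adjusted p = 0.0312). Without L266 and L291 it was 0.20 (adjusted p = 0.167), and without L201 and L233 0.26 (adjusted p = 0.0302). That average also lost its call when any one of 8 of the 18 libraries was left out, at adjusted p of up to 0.107. In the same averaged contrast 4 of 6 oligodendrocyte and 4 of 7 microglial markers were higher with CP2; their part was not tested. The partner subunits were called in no contrast: Suclg1, the shared alpha subunit, had 0.18 (SE 0.083) and Sucla2, the ADP-forming beta subunit, 0.084 (SE 0.065) for CP2 against vehicle in KO M. Per kilobase, Sucla2 exceeded Suclg2 by 5.61 to 6.38 times in KO CP2 M and by 7.82 to 8.66 times in KO vehicle M, as a description.

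Glud1, glutamate dehydrogenase, which releases 2-oxoglutarate from glutamate, moved in the same 2 contrasts. In M it stood at 335, 367, 368, 368 and 371 CPM in KO CP2 and at 277.5, 283.1, 285.1, 304 and 331 CPM in WT CP2. KO vehicle M samples stood at 259.7, 302 and 333 CPM and WT vehicle M samples at 311.1, 327 and 332 CPM. All 5 KO CP2 samples, L298 being the lowest, lay above the WT CP2 and KO vehicle samples. Against WT with CP2 Glud1 rose by 22.2% (log2 fold change 0.29, SE 0.071, adjusted p = 0.00571), or 0.27 without L266 and L291 (adjusted p = 0.047).

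Against vehicle in KO M the Glud1 change was 0.28 (SE 0.082, adjusted p = 0.0377), and it was not called without L266 and L291 (0.26, adjusted p = 0.156) or with any one of L266, L291, L292 and L299 of KO CP2 M or L319 and L322 of KO vehicle M left out, where its adjusted p reached 0.38. In F, Glud1 stood at 288.5, 311.4, 342, 349 and 368 CPM in KO CP2 and at 321.7, 338, 338, 354 and 369.9 CPM in WT CP2. KO vehicle F samples stood at 282.8, 341, 344, 344 and 369.7 CPM and WT vehicle F samples at 321, 324, 340.1, 357 and 371 CPM. These 4 groups overlapped, and KO against WT with CP2 in F was -0.053 (SE 0.070). Got1 and Got2, the aspartate aminotransferases that also exchange glutamate and 2-oxoglutarate, had 0.041 (SE 0.059) and 0.080 (SE 0.055) in KO against WT with CP2 in M and were called nowhere.

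Idh1, the cytosolic NADP-dependent isocitrate dehydrogenase, stood at 51.7, 54.5, 58.5, 61.4 and 64.7 CPM in KO CP2 M and at 43.2, 43.3, 43.8, 45.4 and 49.3 CPM in WT CP2 M, with no overlap. KO vehicle M samples stood at 37.1, 52.4 and 59.2 CPM and WT vehicle M samples at 44.4, 45.4 and 49.2 CPM, L322 of KO being far below the others. In F the values were 43.9, 44.97, 46.6, 55.9 and 59.02 CPM in KO CP2, 43.8, 44.3, 47.03, 51.6 and 53.6 CPM in WT CP2, 38.8, 46.7, 50.8, 53.6 and 54.1 CPM in KO vehicle and 43.6, 47.3, 50.1, 54.97 and 56.3 CPM in WT vehicle, all overlapping. Idh1 rose by 29.2% in M with CP2 (log2 fold change 0.37, SE 0.10, adjusted p = 0.0128), and over F and M the average was 0.21 (SE 0.071, adjusted p = 0.0399). Without L266 and L291 both were still called, at 0.42 in M (adjusted p = 0.0244) and 0.24 on average (adjusted p = 0.038). With 1 library left out the average was called in 8 of 20 fits, and its adjusted p reached 0.087. The average was also not called with the share of counts outside genes (adjusted p = 0.151) or the title number (adjusted p = 0.0699) as a covariate.

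The mitochondrial isocitrate dehydrogenases gave no call. Idh2, the NADP-dependent form, had 0.27 (SE 0.11, adjusted p = 0.123) in M with CP2. The 3 subunits of the NAD-dependent enzyme that turns the cycle, Idh3a, Idh3b and Idh3g, had 0.084, -0.027 and 0.016 (SE 0.054, 0.062 and 0.058).

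Pdha1, the E1 alpha subunit on which the kinases act, stood at 205, 205, 213, 214 and 215 CPM in KO CP2 M and at 171, 185, 187, 192 and 194 CPM in WT CP2 M. With vehicle in M it stood at 189.9, 190.4 and 202 CPM in KO and at 175, 196 and 200.7 CPM in WT. The CP2 groups of M did not overlap, whereas the vehicle groups did. In F the values were 204, 204, 214, 220.1 and 226 CPM in KO CP2, 208, 208, 211, 214 and 217 CPM in WT CP2, 189, 197, 209, 214 and 218 CPM in KO vehicle and 194, 199.7, 213, 215 and 215 CPM in WT vehicle, with no separation between groups. Pdha1 rose by 13.3% in M with CP2 (log2 fold change 0.18, SE 0.052, adjusted p = 0.0218), and the call was lost without L266 alone, without L262 of WT (adjusted p of up to 0.098), or without L266 and L291 (0.16, adjusted p = 0.117).

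Mdh2, which closes the cycle by oxidising malate to oxaloacetate, stood at 238, 242, 256, 258.6 and 277.4 CPM in KO CP2 M and at 203, 215.7, 229, 237 and 242 CPM in WT CP2 M. In F with CP2 it stood at 250.004, 258, 266.02, 284 and 284 CPM in KO and at 231, 247, 255, 256 and 265 CPM in WT. Both pairs of groups overlapped by a sample or more, the WT samples being lower on average. With vehicle it stood at 248, 250.1, 259.7, 262.04 and 270.1 CPM in KO F, 239, 245.6, 253, 255 and 263.4 CPM in WT F, 238, 244 and 255 CPM in KO M and 219.9, 251 and 256 CPM in WT M. Averaged over F and M, Mdh2 rose by 9.93% with CP2 (log2 fold change 0.14, SE 0.041, adjusted p = 0.0221), which held without L266 and L291 (adjusted p = 0.0237) and without L201 and L233 (adjusted p = 0.0101). The call was lost without L240 of WT CP2 F (adjusted p = 0.0537) and with the share of counts outside genes as a covariate (adjusted p = 0.0875). In M alone it was 0.17 (adjusted p = 0.0448), a call kept in 2 of 9 alternatives and lost without L266 and L291 (0.20, adjusted p = 0.0744). Mdh1, the cytosolic form and the most abundant of the 32 genes, had 0.014 (SE 0.044) on average with CP2.

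**Figure D4:**
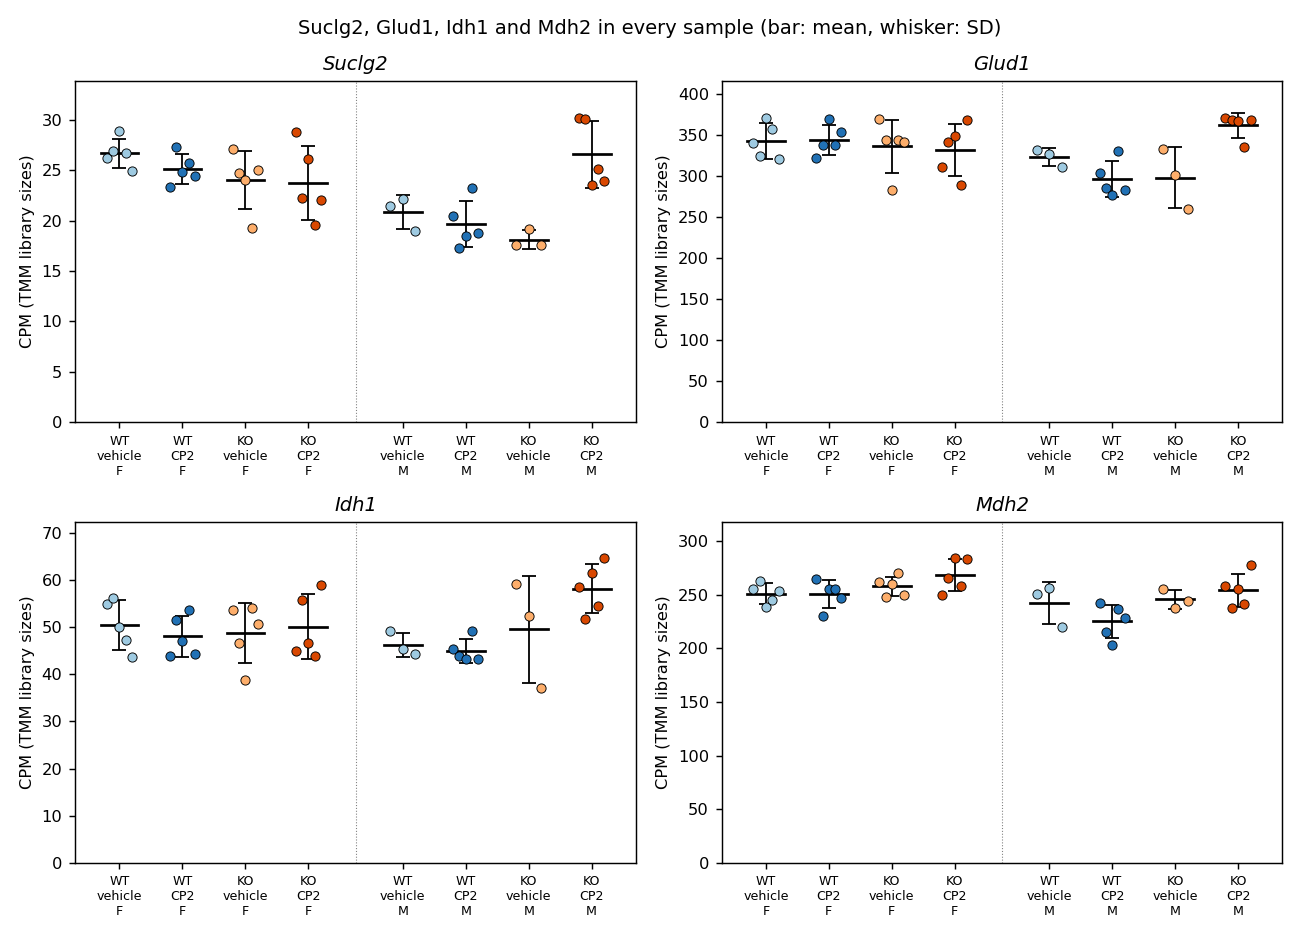
CPM (y axis, from 0) of Suclg2, Glud1, Idh1 and Mdh2 in each of the 36 samples, by group; bars are group means and whiskers the SD. The 5 KO CP2 M samples of Suclg2, at 23.6 to 30.2 CPM, lie above the other M groups, and the F groups of each gene overlap.

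The M differences went along with other measured differences between the same groups. In KO against WT with CP2 in M, 5 of 7 microglial markers and 2 of 7 astrocyte markers were higher in KO, as were 1 of 6 oligodendrocyte and 1 of 8 neuronal markers. The microglial sum ranged over 355 to 466 CPM in KO CP2 M, 279.998 to 351 CPM in WT CP2 M and 309 to 371 CPM in KO vehicle M. The astrocyte sum ranged over 5959 to 7042, 4882 to 5763 and 4595 to 6491 CPM, and the oligodendrocyte sum over 8210.5 to 15120, 8647 to 11169 and 7828 to 9221 CPM in the same order, with no marker of these lists at 0. In CP2 against vehicle in KO M, 3 of 7 microglial, 1 of 7 astrocyte and 1 of 6 oligodendrocyte markers were higher. Choroid plexus markers gave no call, but all 6 lay above 0 in both M contrasts, with median log2 fold changes of 0.57 against WT and 0.998 against vehicle. In F all 6 lay below 0, with medians of -0.52 and -0.40. Their sum ranged over 194 to 2775 CPM in KO CP2 M, 735 to 1884 CPM in WT CP2 M and 591 to 1106 CPM in KO vehicle M. The part of these cell types in the results was not tested.

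With the share of counts outside genes as a covariate, 2 of the 7 genes called in KO against WT with CP2 in M, Pdp1 and Suclg2, were still called, and 0 of the 2 in CP2 against vehicle in KO M. Under it the adjusted p was 0.0309 for Suclg2, 0.391 for Glud1 and 0.445 for Idh1 in the first contrast, and 0.167 for Suclg2 in the second, where its log2 fold change was 0.56 with the covariate and 0.55 without it. The share and the group are nearly confounded there, since KO CP2 M and KO vehicle M do not overlap in it, and their effects cannot be told apart.

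In WT, 0 of the 32 genes were called for CP2 against vehicle on the average of both letters, as were 0% of all genes, and no gene of the 32 had an unadjusted p under 0.05. Over all genes 1031 had an unadjusted p under 0.05 and DESeq2 called 0. The log2 fold changes of the 32 genes ran from -0.10 for Pdp2 to 0.17 for Pdk4. In KO, CP2 gave 0 calls among the 32 in F, where 0.0859% of all genes were called, and 2, Suclg2 and Glud1, in M, where 5.1% were. The genotype by CP2 interaction called none of the 32 and 0.715% of all genes. Its largest value in the module was 0.36 (95% interval 0.15 to 0.56, adjusted p = 0.0879) for Suclg2. The median of the 32 genes was 0.073, beside -0.0048 over all genes tested. With the share of counts outside genes as a covariate, the median of the 32 was -0.014.

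With vehicle in M, with 3 samples a group, none of the 32 was called, and 0.516% of all genes were. In the differences between F and M, none of the 32 was called for KO against WT with vehicle, where 0.102% of all genes were, or for CP2 against vehicle in KO, where 0.691% were. For Me3 the latter difference was 0.53 (SE 0.16, adjusted p = 0.0919).

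The 21 genes called in no contrast included the rest of the pyruvate dehydrogenase complex, with Pdhx, Dlat, the acetyltransferase core, and Dld, the subunit shared with other complexes; their smallest adjusted p over the 16 contrasts was 0.29, for Dlat. Citrate synthase, Cs, which opens the cycle, had 226.5 ± 7.66 CPM in KO and 239 ± 2.38 CPM in WT in F with vehicle (SD, n = 5 each), a log2 fold change of -0.075 (95% interval -0.16 to 0.011) over F and M. Aco1, the cytosolic aconitase, which is also an iron-regulated RNA-binding protein, had -0.027 (95% interval -0.15 to 0.10). Fumarase, Fh1, came closest to a call of the 21, at -0.15 (SE 0.052, adjusted p = 0.0666) for KO against WT with vehicle. Sucla2 followed, at 0.13 (SE 0.043, adjusted p = 0.07) in KO for CP2 compared with vehicle.

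A wider list of 30 genes held succinate dehydrogenase, lipoate synthesis, pyruvate carriers, a glutaminase, the GABA shunt and the carriers that move cycle intermediates. It gave 6 calls in KO against WT with vehicle (1 higher, 5 lower), 8 with CP2 (5 higher, 3 lower) and 3 for CP2 in KO (all higher), each averaged over F and M, where 6.67%, 11.6% and 3.91% of all genes were called. With CP2, Lias, the lipoate synthase that makes the cofactor of Dlat and Dlst, rose by 30.6% in KO (30.7 against 23.4 CPM, log2 fold change 0.39, SE 0.059, adjusted p = 2.13e-05). Gls2, a glutaminase, fell by 27.98% (-0.47, SE 0.080, adjusted p = 9.59e-05), and Gpt, an alanine aminotransferase, by 25.4% (-0.42, SE 0.10, adjusted p = 0.00407). The dicarboxylate carrier Slc25a10 rose by 18.2% (0.24, SE 0.058, adjusted p = 0.00428). These 4 calls were kept in all 9 alternatives and with each of 20 libraries left out.

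With vehicle, the mitochondrial acetate-activating enzyme Acss1 fell by 28.003% in KO (-0.47, adjusted p = 0.0024), and the GABA shunt enzymes Aldh5a1 and Abat fell by 15.7% (-0.25, adjusted p = 0.00259) and 16.8% (-0.26, adjusted p = 0.00986). Sdhc, a membrane subunit of succinate dehydrogenase, fell by 14.9% (-0.23, adjusted p = 0.00352). Within KO, the 3 calls for CP2 against vehicle were Sdhc (0.19, adjusted p = 0.0155), Acss1 (0.35, adjusted p = 0.024) and Abat (0.22, adjusted p = 0.034), all higher with CP2; these contrasts share the KO vehicle samples with KO against WT under vehicle. Each of these 7 calls was lost with the share of counts outside genes as a covariate, at adjusted p from 0.105 to 0.80. Without L266 and L291 the calls for CP2 in KO were also lost for Acss1 (0.33, adjusted p = 0.0716) and Abat (0.17, adjusted p = 0.137) and kept for Sdhc (0.20, adjusted p = 0.0316). The oligodendrocyte and microglial markers that were higher in that contrast are given above with Suclg2. Sdhc was also the 1 gene of the 30 called in the genotype by CP2 interaction, at 0.26 (SE 0.067, adjusted p = 0.0466), a call kept in 4 of 9 alternatives and lost without L266 and L291 (adjusted p = 0.0708) or without L278 (adjusted p = 0.0625). In WT, CP2 gave 0 calls among the 30 genes.

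By letter, the list gave 5 calls in F and 2 in M for KO against WT with vehicle, 2 in F and 4 in M with CP2, and 0 in F and 4 in M, all higher, for CP2 in KO. Of all genes, 4.96% and 0.516% were called in the first pair, 2% and 9.99% in the second and 0.0859% and 5.1% in the third. Without L278, Acss1 alone kept its F call with vehicle (adjusted p = 0.0337). The M calls with vehicle, Abat and Aldh5a1, were each kept in 2 of 6 fits with 1 library left out. Without L201 and L233, Gpt2 lost its F call with CP2 (adjusted p = 0.101). Without L266 and L291, Slc25a11 lost its M call with CP2 (adjusted p = 0.0732). Acss1 (adjusted p = 0.133) and Slc25a10 (adjusted p = 0.100) then lost theirs for CP2 in KO M. Abat rose with CP2 against vehicle in KO M (0.47, SE 0.093, adjusted p = 0.00224), a call lost with the share of counts outside genes as a covariate (adjusted p = 0.389).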

How the data were processed

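Total RNA came from a Trizol-based kit, and its polyA fraction went into Illumina TruSeq libraries, per the labels' protocols. STAR, HTSeq and the build GRCm39 are named in the submitters' processing notes, without versions; strand settings are not given in the sources used here. The deposited table holds the authors' raw read counts of 56980 genes and 5 summary rows in 36 samples. The row of counts outside annotated genes gave the share used above, and rows for ambiguous and multiply aligned reads held 1.79% to 2.17% and 4.05% to 5.91%. Symbols and exon lengths came from GENCODE M21 on GRCm38, which named 52073 gene identifiers (91.4%) holding 97.2% of counts. No coordinates of the counts are given, and promoter sequences are those of RefSeq on GRCm38.p6. Reads that overlapping, antisense or near-identical genes share could not be separated.

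Counts were tested with edgeR 4.0.16 in R 4.3.3 (TMM, filterByExpr, robust quasi-likelihood fit) with 1 coefficient per group over all samples, and p-values were adjusted by Benjamini-Hochberg within each contrast. The standard error is the log2 fold change over the square root of F. Averages weight F and M equally. The 66 pairs of samples of 1 group differed by a mean chi-square of 11.5 to 117 per gene, so none was a repeated library. The fit was tested on simulated data with 1.5-fold changes, which says nothing of smaller changes. Alternatives were DESeq2 1.42.0, RLE factors, no filter, no robust step, only the groups of that letter, 3 covariates (share outside genes, title number, a hippocampal CA marker score), and each library left out; leaving out L266 with L291, or L201 with L233, was added after seeing the data. Permutation tests used scipy 1.17.1. Ranges and intervals cover the spread between samples.

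The 32 genes, the 30 wider pathway genes and the marker lists were chosen with earlier results of these data known. All 32 are accounted for by role. The 11 genes called in any contrast get group values, and the 8 of them with the smallest adjusted p get values in every sample. Of the wider list, up to 4 called genes per contrast with the smallest adjusted p are named and the others only counted; 1 gene was left out of the list and is not reported here. The markers also comprised endothelial, choroid plexus, hippocampal, dentate, cortical and striatal lists: endothelial, choroid plexus and striatal genes gave 0 calls in the averaged contrasts and in those of M, hippocampal CA and cortical genes at most 1 of 6 each, and dentate genes at most 1 of 4. In F, calls in these lists were 2 of 6 hippocampal CA and 1 of 6 endothelial genes for KO against WT with vehicle, and 1 of 6 CA genes for CP2 in KO.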

Additional observations from a re-analysis of the deposited data

Results flagged for a closer look

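In KO CP2 M, Glud1 was 335 CPM in L298, while the other 4 samples lay between 367 and 371 CPM. The gap was 0.879 of the group's range, above Dixon's critical value of 0.71 for 5 samples. It was the only such value among 66 sets of 5 samples (11 called genes in 6 groups), of which chance alone marks about 1 in 20.

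For CP2 against vehicle in KO, the effects in F and M differed by edgeR's test for Abat, a gene of the wider list. The F effect less the M effect was -0.50 (SE 0.12, adjusted p = 0.0473), with -0.034 in F and 0.47 in M. The difference was called in 5 of 9 alternatives, with an adjusted p of up to 0.255, and in 5 of 18 fits with 1 library left out. It was not called without L266 and L291 (adjusted p = 0.180) or without L201 and L233 (adjusted p = 0.0880).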

How the results depend on the processing

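No paired analysis was possible because no title number is shared between groups. No call of the 32 genes changed sign. Of 180 values under the alternatives other than leaving out 1 library, 130 kept the call and 50 lost it. Of 288 with 1 library left out, 200 kept it and 88 lost it. The vehicle groups of M hold 3 samples each and the other groups 5.

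The number of the 32 genes called between KO and WT with vehicle, 4 on average, was 1 with RLE factors, the share outside genes or the title number as a covariate, and 2 with no filter; leaving out 1 library gave 1 to 6. In F, 1 became 0 with RLE factors, no filter, the share outside genes or only the F groups, and 2 with the title number or the CA score; 1 library left out gave 0 to 3. In M, 0 became 2 with only the M groups or DESeq2.

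With CP2, the average of 5 ranged over 3 to 6 with 1 library left out. In F, 1 became 0 with no filter, the share outside genes, the title number, only the F groups, or without L201 and L233, and 0 to 1 with 1 library left out. In M, 7 became 3 with the share outside genes and 4 without L266 and L291. For CP2 against vehicle in KO, the average of 1 became 0 with the share outside genes, the title number, or without L266 and L291, 2 without L201 and L233, and 0 to 1 with 1 library left out. In M, 2 became 0 with the share outside genes or without L266 and L291, 1 with the title number or the CA score, and 1 to 3 with 1 library left out. The interaction gave 0 to 1 with 1 library left out. The F and M difference gave, for KO against WT with CP2, 1 with DESeq2 and 0 to 2 with 1 library left out, and for CP2 in KO 1 with the title number, 2 with DESeq2 and 0 to 3 with 1 library left out.

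With the share outside genes as a covariate the median log2 fold change of the 32 genes went from -0.051 to 0.011 for KO against WT with vehicle, from 0.052 to -0.0096 for CP2 in KO and from 0.073 to -0.014 for the interaction, while 146 of 149 alternative medians moved by less than the spread between samples; the cause was not tested. With 1 library left out, the difference in the share outside genes was 2.63 to 4.01 percentage points for KO against WT with vehicle in F, -4.75 to -3.60 for KO against WT with CP2 in M, and -5.23 to -4.26 for CP2 in KO M. The exact p was then above 0.05 in 6 of 10 cases for the first; for the third, the samples left cannot give a p under 0.05.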
